A study of Mus musculus with 4 samples.

Results

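The 6 genes described here encode transcription factors, or subunits of them, that act in the choice of a thymocyte between the CD4 and the CD8 lineage: Zbtb7b, Gata3, Runx1, Runx3, Cbfb and Patz1. They were chosen by name from the 32285 genes in the count matrices, all 6 were found under those symbols, and their related gene Zbtb7a was left out by the choice. Their transcripts were followed across double positive (DP), CD4 single positive (CD4SP) and CD8 single positive (CD8SP) cells, and across genotype. None of the 6 was used to set those cell groups.

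Single-cell RNA sequencing in droplets was run on whole thymocytes of 4 mice. Transcripts are captured near the 3′ end and labelled with a unique molecular identifier (UMI), and PCR copies with the same identifier count as 1 molecule. The 2 control libraries came from Tox4 F/F mice, which carry loxP-flanked Tox4 exons on both alleles and no Cre, and the 2 cKO libraries from Tox4 F/F mice that also carry the Lck-Cre transgene. Both groups therefore share the floxed alleles, made by CRISPR-Cas9 in C57BL/6 mice, and differ in Cre, whose Lck promoter is active in developing T cells from the double negative stages on. The mice were gender-matched littermates 6 to 8 weeks old, and the labels name no treatment. Cre without floxed alleles was not among the groups, so effects of Cre and of Tox4 loss cannot be told apart. Libraries are named by genotype and replicate number, and each was treated as 1 mouse, so that libraries and not cells were the replicates. The spread behind a p-value was estimated with information from all genes tested. Between gates it was the spread left after a library block.

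The 4 libraries held 57354 cells and 204258388 UMIs, between 42716798 and 62007453 UMIs each, and 33414 cells passed the quality limits. Cells over the mitochondrial limit made up 48.3% of control 1 and 46.1% of cKO 1 but 20.6% of control 2 and 23.1% of cKO 2, so that the loss followed the replicate number and not the genotype. Tox4 itself was at 68.6 and 73.5 depth-normalised UMI counts (CPM) in the kept cells of the controls and at 54.3 and 62.2 CPM in those of the cKO libraries, and as 3′ tags lie outside the deleted exons this level checks the deletion only weakly. Between 36 and 70 cell barcodes were shared by any 2 libraries, and none of the shared barcodes had identical counts.

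Cells were placed by marker UMIs. The DP gate needed UMIs of Cd4 and of Cd8a or Cd8b1 and at most 1 of 8 maturity genes, and held 14973 cells. Inside it, DPbla (the cycling DP blasts, 1618 cells) had at least 3 UMIs of cell cycle genes, DPsel (765 cells) had at least 2 of the positive selection genes Cd69, Itm2a and Cd5, and DPre (resting DP cells, 12043 cells) had at least 1 UMI of the recombinase genes Rag1 and Rag2. The CD4SP gate (555 cells) needed Cd4 and Trac UMIs, no UMI of Cd8 or recombinase genes and at least 2 maturity genes, and the CD8SP gate (673 cells) at least 3 Cd8 UMIs, no Cd4 or recombinase UMI, a Trac UMI and at least 2 maturity genes. Markers that no gate used were summed by list. The summed level of Nkg7, Itgae, Cd7, Ctsw and Eomes was 854 to 1058 CPM in CD8SP and 189 to 235 CPM in CD4SP, and that of Cd40lg, Tnfrsf4, Icos and Foxp3 was 177 to 392 CPM in CD4SP and 53.7 to 104 CPM in CD8SP. Dntt, which encodes terminal deoxynucleotidyl transferase, was at 1429 to 1527 CPM in DPre and 42.8 to 102 CPM in the single positive gates, and Arpp21 at 1417 to 1554 CPM and 20.5 to 72.2 CPM. Single markers were less distinct: Cd1d1 stood at 54.9 to 85.1 CPM in DPre and 34.0 to 48 CPM in CD4SP, a difference not called against all DP, and Foxp3 was higher in CD8SP than in CD4SP in control 1 (11.7 against 2.90 CPM) and was not called between the mature gates. A lower level in a gate can mean fewer cells with the transcript or less of it per cell, and summed counts do not tell these apart.

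Zbtb7b encodes ThPOK, a zinc finger protein required for the CD4 helper fate, and Gata3 encodes a zinc finger factor that acts upstream of it in selected thymocytes. Runx1 and Runx3 encode the DNA-binding subunits of core-binding factor, which acts on the silencer of Cd4 and on Zbtb7b, with Runx3 known as the main factor of the CD8 cytotoxic fate, and Cbfb encodes the partner subunit that stabilises RUNX proteins on DNA. Patz1 encodes MAZR, a zinc finger protein that represses Zbtb7b and takes part in Cd8 regulation.

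The genes lie on different chromosomes. In GRCm38 (annotation GENCODE M21) Zbtb7b spans chr3:89377644-89394776 on the minus strand, Gata3 chr2:9857078-9890034 on the minus strand, Runx1 chr16:92601466-92826149 on the minus strand, Runx3 chr4:135120652-135177990 on the plus strand, Cbfb chr8:105170674-105217989 on the plus strand and Patz1 chr11:3288874-3309083 on the plus strand. RefSeq (GRCm38.p6) listed 10 promoter windows for the 6 genes, 300 bases each around a transcription start, and the letters ACCACA, the core recognised by RUNX proteins, or their reverse complement TGTGGT occurred in 3 of them, against 16.8% of the windows of all genes (5506 of 32851). The core of GATA proteins, AGATAA or on the other strand TTATCT, occurred in 0 of the 10, against 11.2% of all windows (3672).

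The 3 windows are shown because the genes they belong to, Runx1, Runx3 and Zbtb7b, differed most between CD4SP and CD8SP cells, with the RUNX core in capitals, read 5′ to 3′ along the gene. That of Runx1 lies at its distal start (chr16:92826025-92826324, minus strand), that of Runx3 at its distal start (chr4:135120395-135120694, plus strand) and that of Zbtb7b at the downstream of its starts (chr3:89387622-89387921, minus strand).
Runx1 distal: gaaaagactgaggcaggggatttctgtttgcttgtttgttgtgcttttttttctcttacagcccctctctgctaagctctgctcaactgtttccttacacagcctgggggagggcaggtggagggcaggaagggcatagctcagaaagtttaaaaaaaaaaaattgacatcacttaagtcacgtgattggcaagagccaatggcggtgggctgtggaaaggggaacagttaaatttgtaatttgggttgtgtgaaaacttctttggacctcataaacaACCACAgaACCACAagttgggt
Runx3 distal: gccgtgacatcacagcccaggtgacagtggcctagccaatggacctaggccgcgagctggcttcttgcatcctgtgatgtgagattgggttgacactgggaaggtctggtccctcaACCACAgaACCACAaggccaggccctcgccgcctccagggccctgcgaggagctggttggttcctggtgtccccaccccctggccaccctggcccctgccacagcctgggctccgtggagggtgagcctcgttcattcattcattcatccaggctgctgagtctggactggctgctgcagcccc
Zbtb7b: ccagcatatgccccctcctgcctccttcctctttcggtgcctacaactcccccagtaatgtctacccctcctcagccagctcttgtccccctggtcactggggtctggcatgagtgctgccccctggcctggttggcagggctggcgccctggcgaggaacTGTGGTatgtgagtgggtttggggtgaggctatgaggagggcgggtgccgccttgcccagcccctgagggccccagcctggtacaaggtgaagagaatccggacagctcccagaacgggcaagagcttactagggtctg
The distal windows of Runx1 and Runx3 each held 2 copies of the core separated by the same pair of bases. That arrangement stood in 4 of the 32851 windows (0.0122%), those of Gm16225, Runx1, Runx2 and Runx3. In the Zbtb7b window the core stood once, on the other strand. These letters are a description of the windows: no binding was measured here, and tags from the 3′ end do not show which start a transcript came from.

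The lineage factors with the largest contrast between the mature gates were Zbtb7b and Runx3, in opposite directions. Zbtb7b transcripts stood at 84.1 CPM in control 1, 63.4 in control 2, 71.0 in cKO 1 and 91.0 in cKO 2 in the CD4SP gate (mean 77.4 ± 12.5 CPM, SD, n = 4 libraries). In the CD8SP gate the same libraries gave 7.77, 3.69, 2.52 and 2.60 CPM. Every CD4SP value lay far above every CD8SP value. The difference, CD4SP over CD8SP within libraries, was 4.31 on the log2 scale (SE 0.30, 19.8-fold, edgeR quasi-likelihood test with Benjamini-Hochberg adjusted p = 3.79e-12). The CD8SP sums rested on 3 to 6 UMIs a library, and over 16 alternative settings the log2 difference ranged from 3.21 to 5.65. The mononuclear phagocyte gate, cells chosen for macrophage markers that should lack Zbtb7b, held 6.24, 10.3, 10.2 and 2.90 CPM from 1 to 3 UMIs a library, above CD8SP in each library but control 1. That gate also held Dntt at 557 to 978 CPM, against 1305 to 1400 CPM in all DP cells, so its values include thymocyte RNA and are no plain background.

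Runx3 showed the converse. Its CD8SP levels were 268, 257, 307 and 248 CPM in control 1, control 2, cKO 1 and cKO 2 (mean 270 ± 26.3 CPM, SD, n = 4 libraries). Its CD4SP levels were 37.7, 53.5, 43.8 and 61.0 CPM. The lowest CD8SP library was still above the highest CD4SP library, with a log2 difference of -2.39 for CD4SP over CD8SP (SE 0.16, adjusted p = 2.41e-12, edgeR quasi-likelihood). Runx3 UMIs were also found in the CD4SP gate. The mononuclear phagocyte gate, no plain background, held 18.7, 10.3, 6.83 and 37.7 CPM, from 2 to 13 UMIs a library. In each library CD4SP was the higher, though the phagocyte level of cKO 2, 37.7 CPM, reached the lowest of the CD4SP values. How much of the CD4SP level came from outside the cells was not tested.

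Runx1, the other DNA-binding subunit, was the reverse of Runx3. It was found at 151, 131, 154 and 135 CPM in CD4SP and at 49.2, 61.9, 44.5 and 43.3 CPM in CD8SP. The gates did not overlap, and the log2 difference was 1.44 (SE 0.13, adjusted p = 9.60e-10, edgeR quasi-likelihood). Gata3 was at 78.3, 63.4, 91.9 and 87.0 CPM in CD4SP and at 40.1, 60.4, 31.1 and 39.9 CPM in CD8SP. The margin was narrow, since the highest CD8SP library (control 2, 60.4 CPM) nearly reached the lowest CD4SP library (control 2 as well, 63.4 CPM), and the log2 difference was 0.83 (SE 0.17, adjusted p = 0.00125, edgeR quasi-likelihood). This difference depended on the gates: with looser gates it fell to 0.35 (adjusted p = 0.0602).

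Cbfb and Patz1 did not pass the test between the mature gates. Cbfb, which serves both RUNX proteins, was at 52.2 to 69.0 CPM in CD4SP and at 62.2 to 73.1 CPM in CD8SP (log2 difference -0.19, SE 0.13, adjusted p = 0.457). Patz1 was at 37.6 to 72.5 CPM in CD4SP and at 41.6 to 62.7 CPM in CD8SP (log2 difference 0.03, SE 0.16, adjusted p = 0.951). For both genes the libraries of the gates overlapped. So 4 of the 6 factors were called between CD4SP and CD8SP, 3 higher in CD4SP and 1 lower, where 9.05% of the 9272 genes tested were called.

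**Figure D1:**
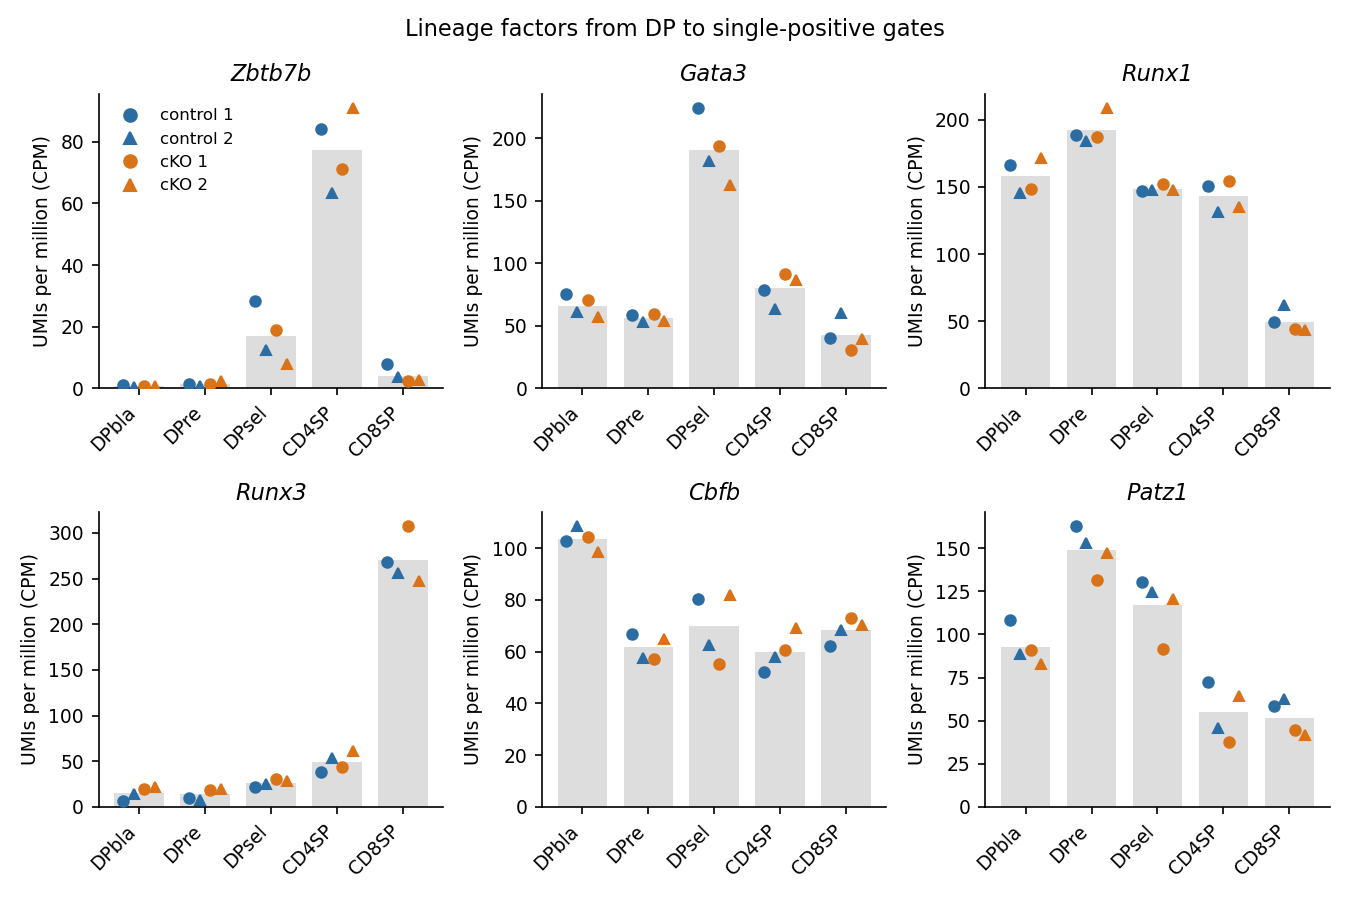
Level of each lineage factor in depth-normalised UMI counts (CPM, vertical axes on separate scales) in the DPbla, DPre, DPsel, CD4SP and CD8SP gates. Points are libraries, blue for control and orange for cKO, circles for replicate 1 and triangles for replicate 2, and grey bars are means of the 4 libraries. Zbtb7b is high in CD4SP (mean 77.4 CPM), Runx3 in CD8SP (mean 270 CPM), Gata3 peaks in DPsel (mean 191 CPM), and Runx1 is lowest in CD8SP (mean 49.7 CPM).

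The order along development was read from DPbla through DPre and DPsel to the mature gates. Zbtb7b was near its floor in DPbla (0.392 to 0.991 CPM) and DPre (0.787 to 2.33 CPM), below the levels of the mononuclear phagocyte gate, and reached 28.2, 12.5, 19.0 and 8.03 CPM in DPsel. All 4 DPsel sums lay above all DPre sums, although they ranged widely, with the lowest in cKO 2 and the highest in control 1. Zbtb7b in DPsel exceeded DPre by 3.57 on the log2 scale (SE 0.35, adjusted p = 6.35e-11) and CD4SP exceeded DPsel by a further 2.5 (SE 0.25, adjusted p = 4.09e-11), whereas CD8SP lay below DPsel by a log2 difference of -1.77 (SE 0.41, adjusted p = 0.000594). With stricter gates DPsel over DPre (2.10, adjusted p = 0.422) and CD8SP over DPsel (-1.09, adjusted p = 0.486) were not called, nor was the latter with a mitochondrial limit of 5% (-2.56, adjusted p = 0.0879). CD8SP over all DP gave 1.04 for Zbtb7b (SE 0.43, adjusted p = 0.0386), a call on CD8SP sums of 3 to 6 UMIs that was made in 6 of 16 alternative settings.

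Gata3 peaked in DPsel and not in the CD4SP gate. Its levels were 225, 182, 194 and 162 CPM in DPsel, against 59.1, 52.8, 59.7 and 54.2 CPM in DPre. Every DPsel library exceeded every library of the other gates. The log2 rise from DPre to DPsel was 1.81 (SE 0.10, adjusted p = 1.35e-18), followed by a log2 difference of -0.95 from DPsel to CD4SP (SE 0.13, adjusted p = 1.39e-07) and of -1.75 from DPsel to CD8SP (SE 0.13, adjusted p = 1.57e-14). Against all DP cells, Gata3 was higher in CD4SP (log2 difference 0.48, adjusted p = 0.00318) and lower in CD8SP (-0.35, adjusted p = 0.0248), with calls made in 14 of 17 and 11 of 16 alternative settings, 1 of the latter in the opposite direction. The first was lost without cKO 2 (0.34, adjusted p = 0.0907). The second was lost without control 1 (-0.29, adjusted p = 0.112) or cKO 1 (-0.21, adjusted p = 0.216) and turned to 0.35 (adjusted p = 0.00483) with looser gates.

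Runx3 rose with selection and further in the CD8SP gate. From 10.2, 7.97, 18.8 and 19.5 CPM in DPre it went to 21.9, 25.0, 30.4 and 28.9 CPM in DPsel. Within every library DPsel was higher than DPre, while control DPsel libraries lay only slightly above cKO DPre libraries. The log2 difference was 0.98 (SE 0.28, adjusted p = 0.00807), called in 10 of 16 alternative settings. It was lost without control 2 (0.77, adjusted p = 0.0588), and was 0.34 (adjusted p = 0.733) with a mitochondrial limit of 5% and 0.38 (adjusted p = 0.850) with stricter gates. The next steps were 1.28 from DPsel to CD4SP (SE 0.29, adjusted p = 0.000425) and 3.70 from DPsel to CD8SP (SE 0.19, adjusted p = 7.42e-20). Of the CD8SP markers, 4 of 4 tested were also higher in CD4SP than in DPsel, where 30.8% of genes were called.

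Runx1 was higher in DP than in CD8SP cells, while CD4SP over all DP did not pass (log2 difference -0.09, SE 0.093, adjusted p = 0.448). Its level was 189, 184, 187 and 209 CPM in DPre and 147, 147, 152 and 148 CPM in DPsel. DPre was the higher in every library, and the 4 DPsel values were close to one another. DPsel lay below DPre by a log2 difference of -0.33 (SE 0.08, adjusted p = 0.00231), a call made in 13 of 16 alternative settings and lost with stricter gates (-0.11, adjusted p = 0.840), a mitochondrial limit of 5% (adjusted p = 0.0666) and thinned cells (adjusted p = 0.354). CD4SP did not pass the test against DPsel (0.21, SE 0.11, adjusted p = 0.129), and CD8SP was lower than DPsel by a log2 difference of -1.20 (SE 0.12, adjusted p = 4.23e-11).

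Patz1 fell with maturation in both lineages. It was at 163, 153, 132 and 147 CPM in DPre and at 131, 125, 91.3 and 121 CPM in DPsel. DPsel was the lower in every library, though the ranges nearly met. The log2 difference was -0.30 (SE 0.09, adjusted p = 0.0157), a call made in 8 of 16 alternative settings and lost without control 1 (-0.30, adjusted p = 0.0736) or cKO 1 (-0.26, adjusted p = 0.0676). Further differences of -0.81 were found from DPsel to CD4SP (SE 0.14, adjusted p = 1.71e-05) and of -0.81 to CD8SP (SE 0.13, adjusted p = 2.13e-06). Cbfb was highest in the cycling DPbla cells, at 103, 109, 104 and 98.5 CPM, and lower in DPre, at 66.9, 57.4, 57.3 and 64.9 CPM, with no overlap (log2 difference of DPre over DPbla -0.98, SE 0.07, adjusted p = 7.08e-16). The same step for Patz1 was 0.45 upward (adjusted p = 2.44e-07), for Gata3 -0.45 (adjusted p = 1.71e-05) and for Runx3 -0.47 (adjusted p = 0.0281), the last called in 6 of 16 alternative settings.

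These counts stood beside broad differences between stages, since gates differ in many genes. Between DPre and DPbla 4 of 6 factors were called where 66.5% of genes were, between DPsel and DPre 5 of 6 where 21.4% were, between CD4SP and DPsel 4 of 6 where 30.8% were, and between CD8SP and DPsel 6 of 6 where 38.6% were. Against all DP cells the counts were 4 of 6 in CD4SP, where 50.2% of genes were called, and 6 of 6 in CD8SP, where 57.3% were. The last count fell to 3 without cKO 1 and to 4 without any other single library, and was 4 by DESeq2. With such backgrounds the counts for CD4SP and CD8SP against DP and for DPre against DPbla say little about the factors as a set.

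Each mature gate was then divided by how many of the 8 maturity genes a cell showed, as a description of where the factors changed inside it. More of these genes are found in deeper cells, and the subset with 4 or more was the deeper in every library and gate (median 4054 to 4895.5 against 4279 to 6474 UMIs in CD4SP and 3778.5 to 5982 against 5829 to 8263 in CD8SP), so that maturity and depth cannot be told apart here. In CD4SP cells with 2 or 3 maturity genes (205 cells) Gata3 was at 104, 92.3, 181 and 121 CPM, and in those with 4 or more (350 cells) at 61.8, 54.6, 42.3 and 64.1 CPM. Gata3 was thus lower in the cells with more maturity genes in every library. CD8SP cells gave 70.7, 169, 70.9 and 58.2 CPM against 28.6, 17.5, 22.5 and 33.2 CPM, again without overlap. Patz1 had a mean of 74.1 ± 21.5 CPM in CD4SP cells with fewer and 44.6 ± 11.2 CPM in those with more maturity genes (SD, n = 4), with libraries that overlapped, and 82.5 ± 13.2 against 42.4 ± 12.1 CPM in CD8SP, without overlap. Runx1 was at 76.1 ± 18.2 against 40.2 ± 7.03 CPM in CD8SP, also without overlap, and at 176 ± 39.0 against 125 ± 26.8 CPM in CD4SP, where libraries overlapped. Runx3 in CD8SP went the other way, from 230 ± 34.5 to 284 ± 26.2 CPM, with libraries that overlapped, and Zbtb7b in CD4SP was at 86.1 ± 25.7 and 73.2 ± 15.9 CPM, also overlapping. The sums in the smallest subset rest on 27 cells, so single values there are coarse.

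Mature cells outside both gates were also read. The 318 mature cells with UMIs of both Cd4 and Cd8 genes held 134 ± 53.5 CPM of Runx3 and 28.5 ± 9.45 CPM of Zbtb7b (SD, n = 4), levels between those of the CD4SP and CD8SP gates. The 277 mature cells with no coreceptor UMI held 73.2 ± 7.90 CPM of Runx3 and 62.2 ± 18.7 CPM of Zbtb7b. Whether such cells are mixtures, doublets or cells with missed coreceptor tags was not tested.

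The share of cells with a UMI was compared for Zbtb7b and Gata3. All cells were thinned to 1500 UMIs, which left out shallower cells (at most 372 of 5289 DP cells in a library, but 86 of 114, 58 of 102, 212 of 255 and 103 of 194 mononuclear phagocytes, whose thinned shares come from the deepest of them). Zbtb7b then had a UMI in 15%, 8.11%, 8.05% and 13.6% of CD4SP cells in control 1, control 2, cKO 1 and cKO 2, against 1.96%, 0%, 0.613% and 1.47% of CD8SP cells. CD4SP was the higher gate in every library, and the 0 of 199 cells in control 2 allows a share of up to 1.84% (95% exact Clopper-Pearson limit, counting error only). Mononuclear phagocytes gave 3.57%, 2.27%, 0% and 0%, which is 1 cell in each control and 0 of 43 and 0 of 91 cells in the cKO libraries, so these few cells set no order between them and CD8SP. Without thinning Zbtb7b had a UMI in 31.7%, 31.7%, 28.7% and 31.1% of CD4SP cells, at median depths of 5358.5, 5796, 5337 and 4205.5 UMIs. The unthinned shares were 5.88%, 2%, 1.83% and 1.45% in CD8SP, at median depths of 5094 to 7199 UMIs. In mononuclear phagocytes they were 0.877%, 1.96%, 1.18% and 0.515%, at median depths of 865 to 1358.5 UMIs.

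Gata3 in thinned cells had a UMI in 28.4%, 22.8%, 30.2% and 22.3% of DPsel cells and in 10.1%, 7.95%, 10.2% and 8.48% of all DP cells. In CD4SP cells the share was 6.67% to 10.5%, in CD8SP cells 1.84% to 13.1% and in mononuclear phagocytes 2.27% to 14.3%, and these ranges overlapped. Only the DPsel shares stood above the phagocyte shares in every library. Unthinned shares were 35.7% to 43.8% in DPsel and 14.6% to 20.1% in all DP cells, at median depths of 2942 to 3950 and 2352 to 3225.5 UMIs. Between genotypes neither gene's share could pass the test used, an exact permutation test, which with 2 against 2 libraries cannot go below p = 0.333, two-sided.

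Runx3 and Zbtb7b were compared in the same cells. Over all libraries 132 of 555 CD4SP cells had a UMI of Zbtb7b alone, 80 of Runx3 alone, 40 of both and 303 of neither. In CD8SP 442 of 673 cells had Runx3 alone, 8 Zbtb7b alone, 8 both and 215 neither, and in DPsel the counts were 62, 29, 3 and 671 of 765 cells. Cells with neither made up 54.6% of CD4SP and 31.9% of CD8SP, which at these depths says nothing on absence. In mononuclear phagocytes, at median depths of 865 to 1358.5 UMIs, 17 of 665 cells had Runx3 alone, 7 Zbtb7b alone and 0 both. Median depths were 4205.5 to 5796 UMIs in CD4SP and 5094 to 7199 in CD8SP.

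The comparison of genotypes asks whether loss of Tox4 moved the lineage factors at each stage. In all DP cells 1 of the 6 factors was called, where 3.42% of 11875 genes tested were called. That factor was Runx3, at 11.3 CPM in control 1 and 10.9 in control 2 against 20.3 in cKO 1 and 21.4 in cKO 2, from 113, 153, 207 and 330 UMIs. Both cKO libraries were higher than both controls. The log2 fold change, cKO over control, was 0.96 (SE 0.15, 1.94-fold, edgeR quasi-likelihood with Benjamini-Hochberg adjusted p = 0.00236).

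The rise was also called in DPre, the largest portion of the DP gate and so no independent sample. Runx3 there stood at 10.2, 7.97, 18.8 and 19.5 CPM, with the groups apart and a log2 fold change of 1.14 (SE 0.18, 2.20-fold, adjusted p = 0.00481). Runx3 was the 1 factor called of 6, where 1.35% of genes were called. In DPbla the levels were 6.94, 14.5, 19.4 and 22.0 CPM. Control 1 was the lowest, the cKO libraries were above both controls, and the log2 fold change of 0.92 did not pass (SE 0.28, adjusted p = 0.175). It was called in 3 of 14 alternative settings, which were without control 2 (1.63, adjusted p = 0.00216), without a filter on low counts (adjusted p = 0.0358) and with the replicate number as a block (0.94, adjusted p = 0.00913). Over libraries left out the DPbla change ranged from 0.51 to 1.63. In DPsel the levels were 21.9, 25.0, 30.4 and 28.9 CPM, with a log2 fold change of 0.37 (SE 0.35, adjusted p = 0.896).

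In the mature gates Runx3 showed no such contrast. CD4SP gave a log2 fold change of 0.11 (SE 0.26, adjusted p = 0.968) and CD8SP 0.08 (SE 0.14, adjusted p = 0.938), and in both gates the genotypes overlapped. The difference of the genotype effects was tested after the DP values had been seen: in CD8SP the effect on Runx3 was smaller than in DP by -0.87 on the log2 scale (SE 0.16, adjusted p = 0.00192, edgeR quasi-likelihood with a library block), the 1 call among the 6 factors where 0.336% of genes were called. In 14 alternative settings that gave an adjusted p it ranged from -1.07 to -0.63, was called in 7, and lost the call without control 1 (-0.87, adjusted p = 0.83) and without cKO 2 (-0.63, adjusted p = 0.312). CD4SP against DP gave -0.85 (SE 0.33, adjusted p = 0.492), and 0 of 6 factors were called (Runx3 alone had an unadjusted p under 0.05) where 0.191% of genes were.

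**Figure D2:**
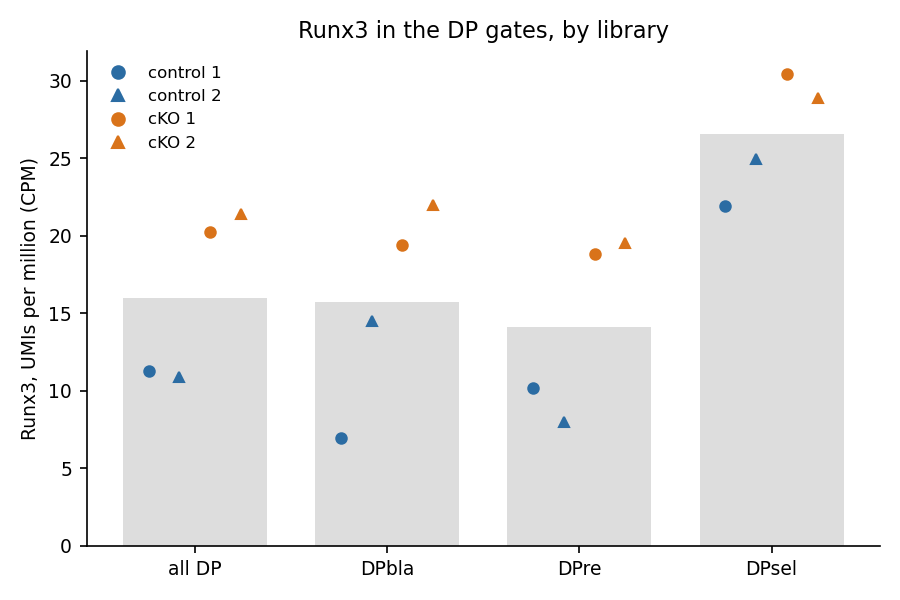
Runx3 in depth-normalised UMI counts (CPM, vertical axis from 0) in all DP cells and in the DPbla, DPre and DPsel portions of them. Points are libraries, blue for control and orange for cKO, and grey bars are means of the 4 libraries. In all DP cells the controls sit at 11.3 and 10.9 CPM and the cKO libraries at 20.3 and 21.4 CPM.

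Most DP cells with Runx3 held 1 UMI of it, and such counts do not tell a rise in a few cells from a rise in all. A Runx3 UMI was found in 97 of 2694 DP cells of control 1 (3.60%), 133 of 4332 of control 2 (3.07%), 174 of 2658 of cKO 1 (6.55%) and 281 of 5289 of cKO 2 (5.31%). Both cKO shares were above both control shares, and 87, 120, 148 and 245 of these cells held 1 UMI. Thinned to 1500 UMIs the shares were 1.48%, 1.07%, 2.62% and 2.89%. In mononuclear phagocytes the unthinned shares were 1.75%, 1.96%, 0.784% and 5.67%, at median depths of 945.5, 1248, 865 and 1358.5 UMIs against 3225.5, 2713, 3126.5 and 2352 in DP cells. Thinned, the phagocyte shares were 0%, 2.27%, 2.33% and 4.40% of 28, 44, 43 and 91 cells, from at most 4 cells with a UMI. At that equal depth the DP share was above the phagocyte share in control 1 and cKO 1 and below it in control 2 and cKO 2. The phagocyte shares of control 2 and cKO 1 were 1 cell each, so they set no order between the genotypes. The part of RNA from outside the cells in the DP difference was not tested.

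Other transcripts moved with Runx3 in the DP gate. Gzma, which encodes the cytotoxic protease granzyme A, was higher in both cKO libraries (124 and 106 CPM) than in the controls (39.4 and 37.0 CPM), by 1.63 on the log2 scale (SE 0.12, adjusted p = 5.85e-07). Gzma differed likewise in mononuclear phagocytes, at 31.2, 5.15, 78.6 and 92.9 CPM. The 5 macrophage markers summed to 36.0 and 36.6 CPM in control DP cells and to 46.1 and 47.1 CPM in cKO DP cells, with none at 0, and the 5 erythroid markers to 20.1 and 15.3 against 24.3 and 36.4 CPM, with Alas2 at 0. The gamma-delta marker Trdc stood at 28.3 and 23.5 against 28.7 and 29.3 CPM. The 5 CD8SP markers summed to 14.8 and 10.2 CPM in the controls and to 11.5 and 10.7 CPM in the cKO libraries, and 1 of the 5 was at 0 in cKO 1. In all DP cells neither the sum nor Nkg7 (3.60, 2.14, 4.31 and 3.57 CPM) divided by genotype, whereas Ctsw was lower in both cKO libraries (8.20, 6.27, 4.70 and 4.29 CPM). In DPre, Nkg7 was at 4.21, 2.07, 5.84 and 4.37 CPM, higher in both cKO libraries, though 0 of the 3 markers tested there were called (median log2 fold change 0.77). CD8SP cells themselves held 0.593 to 0.726 Runx3 CPM for each CPM of Nkg7, whereas all DP cells held 3.14 to 6 and DPre cells 2.41 to 4.47.

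DP cells with a UMI of any of 12 CD8 program genes, Gzma among them, made up 20.8% and 17.2% of DP cells in the controls and 32.5% and 24.7% in the cKO libraries. Without those cells, in a fit added after the values of Runx3 were seen, the log2 fold change of Runx3 was 1.01 in all DP cells (adjusted p = 0.0045) and 1.27 in DPre (adjusted p = 0.00189). The gate gene Cd8a was lower in cKO DP cells (1864 and 1462 against 1151 and 1068 CPM, log2 fold change -0.54, adjusted p = 0.0107), and with DP cells set without the coreceptor genes the log2 fold change of Runx3 was 0.80 (adjusted p = 0.0202). The part of free RNA in the Runx3 difference was not tested beyond these values.

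Across 17 alternative settings the Runx3 change in all DP cells ranged from 0.80 to 1.06 and kept its call in 16, losing it with a mitochondrial limit of 5% (0.84, adjusted p = 0.0667). In DPre it ranged from 0.77 to 1.29 and kept its call in 14 of 16, losing it with that limit (0.77, adjusted p = 0.426) and with stricter gates (0.96, adjusted p = 0.065).

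The other 5 factors were not called for genotype in any gate. In all DP cells Zbtb7b was at 3.90, 1.5, 2.15 and 2.21 CPM, with a log2 fold change of -0.20 (SE 0.40, adjusted p = 0.865), and Gata3, Runx1, Cbfb and Patz1 had log2 fold changes between -0.18 and 0.10 with adjusted p from 0.42 to 0.878. Patz1 was at 149, 139, 116 and 129 CPM, lower in both cKO libraries without passing the test. It and Runx3 were the 2 of 6 factors whose groups did not overlap there, where 46.9% of genes did not, and the same 2 of 6 did not overlap in DPre, where 44% of genes did not. The factors were read in CPM of all UMIs and the shares of all genes in CPM after TMM scaling between libraries, which are unlike measures. In DPre the log2 fold change of Zbtb7b was 0.94, with a wide error (SE 0.50, adjusted p = 0.435).

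In DPbla 0 of the 5 factors tested were called by edgeR quasi-likelihood, 1 had an unadjusted p under 0.05 (Runx3), and 0.529% of genes were called, while Zbtb7b was too low to be tested. In DPsel 0 of 6 were called and 0 had an unadjusted p under 0.05, where 0.186% of genes were called. Zbtb7b there had the largest change in size, -0.61, with an SE of 0.51. DESeq2 gave no adjusted p for the factors in these gates.

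CD4SP cells of cKO and control did not differ beyond error in any factor. By edgeR quasi-likelihood 0 of 6 were called and 0 had an unadjusted p under 0.05, where 0.0565% of genes were called, and by DESeq2 0 were called. Zbtb7b had a log2 fold change of 0.22 (SE 0.22, adjusted p = 0.896) and Gata3 of 0.34 (SE 0.21, adjusted p = 0.77). Differences of that size were within about 2 SE.

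In CD8SP cells 0 of the 5 factors tested were called by edgeR or by DESeq2, where 0.0736% of genes were called by edgeR. Gata3 (log2 fold change -0.56, SE 0.24, unadjusted p = 0.0324, adjusted p = 0.605) and Patz1 (-0.51, SE 0.20, unadjusted p = 0.0215, adjusted p = 0.564) had unadjusted p under 0.05. Gata3 stood at 40.1 and 60.4 CPM in the controls and 31.1 and 39.9 CPM in the cKO libraries, and Patz1 at 58.3 and 62.7 against 44.5 and 41.6 CPM. Over libraries left out the log2 fold change ranged from -0.77 to -0.19 for Gata3 and from -0.58 to -0.43 for Patz1. Of the 5 tested factors 4 did not overlap between genotypes, where 36.9% of genes did not, the exception being Runx3. Gata3 was apart only by 40.1 against 39.9 CPM. The factors were read in CPM of all UMIs and the share of all genes in TMM-scaled CPM, which are unlike measures. Zbtb7b, at 6, 5, 3 and 3 UMIs, was too low to be tested.

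The genotype effects in CD8SP and CD4SP were compared directly. Of the 6 factors 0 were called by edgeR quasi-likelihood and 0 by DESeq2, where 0.0708% of genes were called. Gata3 alone had an unadjusted p under 0.05, with a log2 difference of -0.92 (SE 0.31, unadjusted p = 0.00315, adjusted p = 0.714). Over libraries left out that difference ranged from -1.18 to -0.35.

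**Figure D3:**
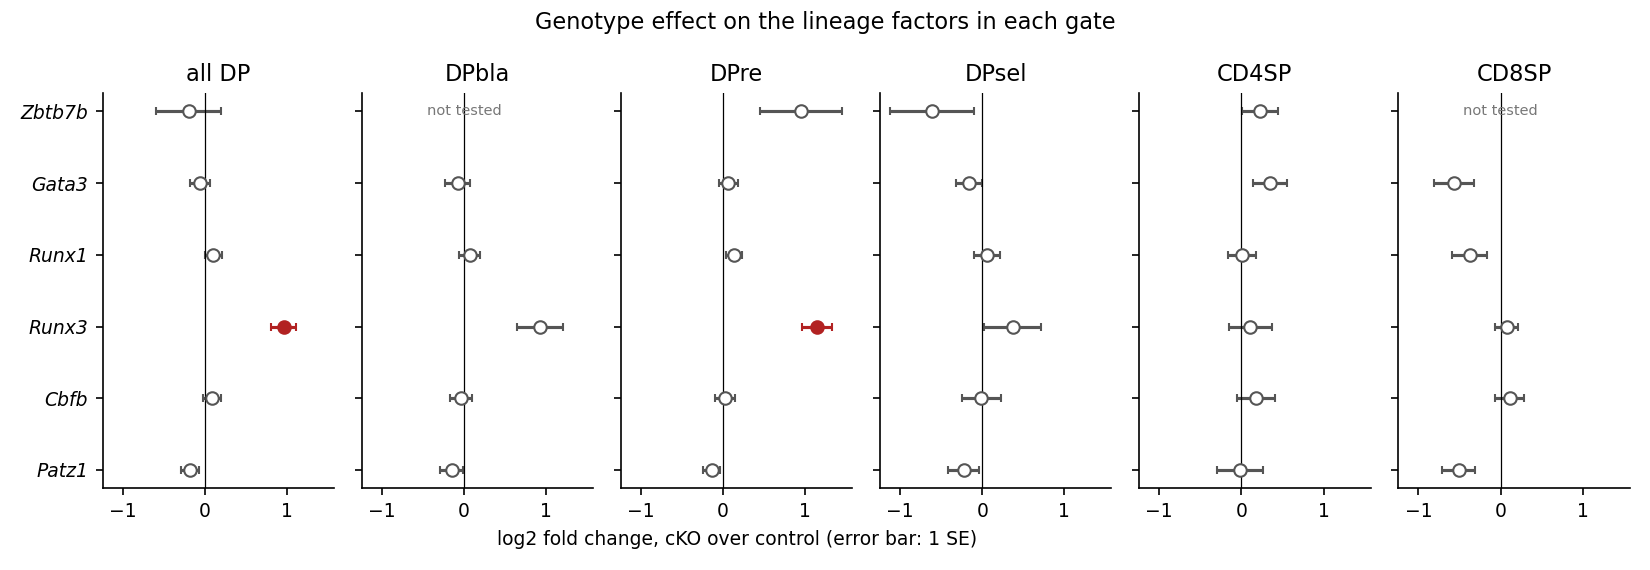
Log2 fold change of each lineage factor, cKO over control (horizontal axis), in each of the 6 gates, with error bars of 1 SE from the edgeR fit on 2 against 2 libraries. Filled red points passed an adjusted p of 0.05: Runx3 in all DP cells (0.96) and in DPre (1.14). Zbtb7b was too low to be tested in DPbla and CD8SP.

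The lists of genes around the factors were read in the same fits. Of 16 cofactors of core-binding factor and of the Cd4 silencer (Groucho-family corepressors, histone deacetylases, chromatin remodelling and elongation subunits), 15 were tested between CD4SP and CD8SP. Tle5 was higher in CD4SP (log2 difference 0.22, adjusted p = 0.0407), and Tle4 (-0.47, adjusted p = 0.031) and Hdac7 (-0.41, adjusted p = 0.00573) were lower, with a median of -0.09 over the list and of -0.0035 over all genes, 9.05% of which were called. Against DP cells 3 cofactors were higher and 8 lower in CD4SP, and 2 were higher and 11 lower in CD8SP, where 50.2% and 57.3% of all genes tested were called. In both, Tle4 rose (1.14 and 1.61) and Tle3 rose (0.54 and 0.33), while Tle2 fell (-2.11 and -1.96) and Smarca4 fell (-1.37 and -1.23). From DPre to DPsel, Tle4 (0.71) and Chd4 (0.22) were higher and 4 were lower, Tle2 (-0.95), Smarca4 (-0.64), Hdac7 and Tle5, where 21.4% of all genes were called.

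Of 21 other regulators of the lineage choice 20 were tested between the mature gates. Higher in CD4SP were 7, led by Ets1 (0.61), Bcl11b (0.59), Id2 (0.50) and Lef1 (0.50), and Myb was lower (-0.76, adjusted p = 0.0016), with a list median of 0.16, where 9.05% of all genes were called. Ets1 and Lef1 are DNA-binding factors of the T lineage, and Id2 encodes an inhibitor of E proteins. From DPre to DPsel 8 were higher, among them Id2 (2.16), Tox (2.02), Nfatc1 (1.23) and Lef1 (1.20), and 4 were lower, among them the E protein gene Tcf12 (-0.59) and Bcl11b (-0.35), beside 21.4% of all genes. Id2 stood further above DP in both mature gates (3.16 in CD4SP and 2.67 in CD8SP), as Myb (-3.36 and -2.60) and Tcf12 (-2.14 and -1.96) stood below.

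The CD4 and CD8 program lists, genes known to be expressed in 1 of the lineages, share markers with the checks of the gates. Of 7 CD4 program genes 5 were higher in CD4SP than in CD8SP, led by St8sia6 (4.77), Cd40lg (4.05), Tnfrsf4 (3.28) and Il6ra (1.76), and Ctsl, which encodes a lysosomal protease, was lower (-0.90, adjusted p = 0.00349), with a list median of 1.76. Of 12 CD8 program genes 10 were tested and 8 were lower in CD4SP, led by Itgae (-5.39), Nkg7 (-4.43), Cd160 (-3.85) and Xcl1 (-2.92), with a list median of -1.78. Of all genes 9.05% were called in that comparison.

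**Figure D4:**
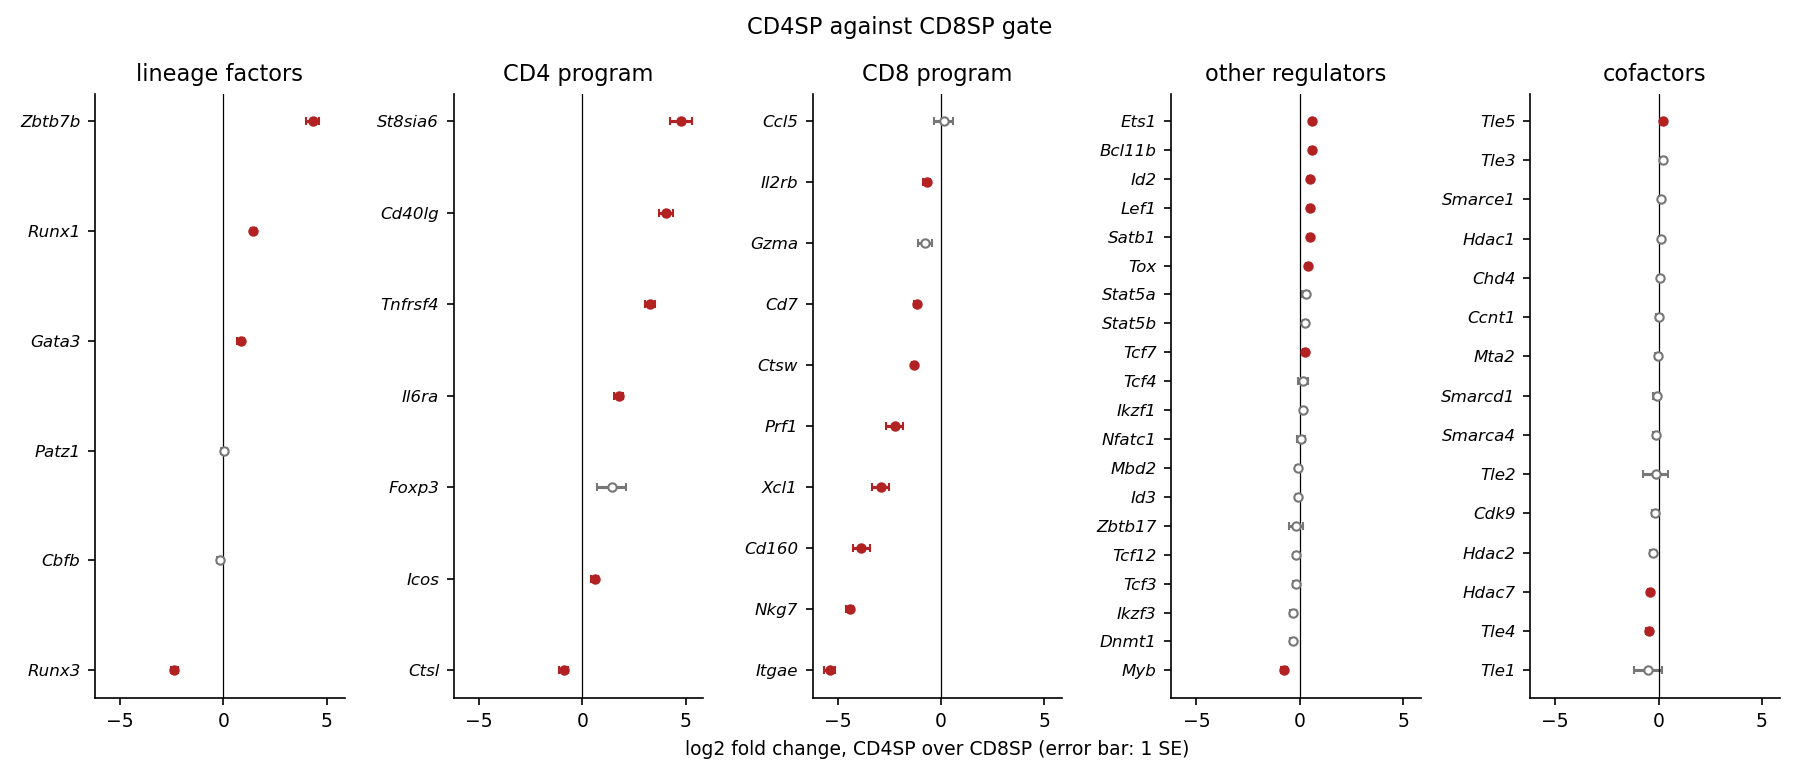
Log2 difference of CD4SP over CD8SP (horizontal axis) with error bars of 1 SE, for the 6 lineage factors, the CD4 program, the CD8 program, the other regulators and the cofactors that were tested. Filled red points passed an adjusted p of 0.05: the factors range from Zbtb7b (4.31) to Runx3 (-2.39), and the cofactors stay within 1 log2 unit of 0.

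By genotype, 0 cofactors were called in any of the 6 gates. The smallest p among them in all DP cells belonged to Tle1 (log2 fold change -0.74, SE 0.20, adjusted p = 0.0506), Chd4 (0.33, adjusted p = 0.0731) and Tle2 (-0.53, adjusted p = 0.0866). In all DP cells, where 3.42% of genes were called, 1 of 21 regulators was higher in cKO, Dnmt1 (82.0 and 83.6 against 119 and 118 CPM, log2 fold change 0.56, adjusted p = 0.00733), which encodes the maintenance DNA methyltransferase, and 1 CD4 program gene was lower, Icos (14.1 and 12.1 against 9.01 and 6.43 CPM, -0.73, adjusted p = 0.0483). Dnmt1 did not pass in DPre (0.36, adjusted p = 0.168) or in DPbla (0.22, adjusted p = 0.613), and it was higher in DPbla than in DPre by 2.60 on the log2 scale. DPbla cells made up 9.73% and 7.34% of the DP gate in the controls and 16% and 11.6% in the cKO libraries, and their part in the Dnmt1 difference was not tested. In CD4SP cells Tnfrsf4, a target gene of the CD4 program encoding OX40, stood at 139, 227, 60.5 and 96.0 CPM, a log2 fold change of -1.30 (adjusted p = 0.00821). In CD8SP cells none of the genes of these lists was called. Between CD8SP and CD4SP the genotype effect differed for the chemokine genes Ccl5 (2.46) and Xcl1 (-3.94, both adjusted p = 0.00292), but the cKO libraries did not move together: Xcl1 in CD4SP was at 52.2 CPM in cKO 1 and 1 CPM in cKO 2, against 2.90 and 0.892 CPM in the controls.

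Genes whose levels were most like those of each factor were sought over the 20 sums of 5 gates and 4 libraries, among 6078 genes. The points share libraries and stages, so the Pearson coefficients describe the gates and carry no test. Zbtb7b was closest to Tnfrsf4 (r = 0.961), Xpo6 (0.937) and Rsu1 (0.924), and Runx3 to Hspe1 (0.935), AW112010 (0.928) and Nkg7 (0.927). Gata3 was closest to Cd28 (0.882), which encodes a costimulatory receptor, Ppip5k2 (0.864) and Abhd8 (0.864), and Runx1 to Aldh2 (0.934), 0610030E20Rik (0.914) and Nsg2 (0.912). Cbfb was closest to Dbi (0.932), Gtf2f1 (0.922) and Snrnp25 (0.921), and Patz1 to A130023I24Rik (0.958), Clk3 (0.954) and Ldhb (0.953). Among the factors, Runx1 and Runx3 ran opposite to each other (r = -0.921), Runx3 ran opposite to Patz1 (-0.766), and Runx1 ran with Patz1 (0.675).

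At the Zbtb7b locus a gene annotated on the opposite strand, Gm15417 (chr3:89391850-89398779), overlaps the start of Zbtb7b. It was at 34.8, 23.2, 43.8 and 28.0 CPM in CD4SP and at 3.88, 0.737, 1.68 and 0 CPM in CD8SP. Every CD4SP library was above every CD8SP library, from 87 and 6 UMIs in all. All DP cells held 0.845 to 2 CPM.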

How the data were processed

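Thymocytes of 2 control and 2 cKO mice were profiled with the 10x Genomics 3′ chemistry. The authors aligned the reads to GRCm38 (mm10) with Cell Ranger 6.1.1, per the submitters' processing notes, and deposited raw UMI counts per gene and cell, from default parameters, neither normalized nor pooled.

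Cells with at least 200 genes, a UMI total between the lowest and the highest 2.5% of the library, and at most 10% mitochondrial UMIs were kept, and the 5% of each library with the highest Scrublet score (scanpy 1.11.5, expected rate 8%) were removed. Cells with UMIs of macrophage, B, gamma-delta, erythroid, epithelial or neutrophil markers above small limits were left out of the T cell gates. Counts were summed per library and gate, and given as CPM of all UMIs in the sum. Sums were tested with edgeR 4.0.16 (R 4.3.3; filterByExpr, TMM, quasi-likelihood F test), with Benjamini-Hochberg adjustment over all genes tested and calls at adjusted p under 0.05. Genotype was the single term within a gate, and between gates the library was a block. The interaction of gate and genotype was tested with the same block. Alternatives were edgeR with no count filter, DESeq2 1.42.0, edgeR scaled by the size factors of DESeq2, other mitochondrial limits (5% and 20%), no doublet removal, no removal of extreme UMI totals, stricter and looser gates, cells thinned to 1500 UMIs, other replicate or library blocks, DP cells set without coreceptor genes, CD4SP cells without Foxp3 or Il2ra UMIs, and each library left out in turn. The interactions with DP and the fit without DP cells that carried CD8 program UMIs were added after the values were seen. The scripts were tested on simulated counts.

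The 6 genes were named, and so were the lists, with earlier results of these data known. Of each list, and in either direction, the 4 called genes that changed most could be named, or those with the smallest p where none was called, and for each factor the 3 genes of highest Pearson coefficient outside the gate genes with a mean of at least 20 CPM. Aes is listed under its current symbol Tle5. Intervals and floors cover counting error only. Promoter windows and their positions came from RefSeq (GRCm38.p6), gene positions from GENCODE M21 on GRCm38. Other genes that overlap the 6 were read from the same annotation.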

Additional observations from a re-analysis of the deposited data

Results flagged for a closer look

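On the log2 scale, and in the main fit, the genotype effect on Runx3 differed between all DP and CD8SP cells. The log2 fold change, cKO over control, was 0.96 in all DP cells and 0.08 in CD8SP cells, and the test of the difference itself, an interaction of gate and genotype with a library block in edgeR's quasi-likelihood test, gave -0.87 (SE 0.16, Benjamini-Hochberg adjusted p = 0.00192 over 11323 genes). DP cells of both cKO libraries (20.3 and 21.4 CPM) lay above those of both controls (11.3 and 10.9 CPM), whereas CD8SP cells overlapped (268 and 257 CPM in the controls, 307 and 248 CPM in the cKO libraries). The test was chosen after the values had been seen, and the call was lost in 7 of 14 alternative settings. With DP cells that carried no CD8 program UMI the difference was -0.94 (adjusted p = 0.000722).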

How the results depend on the processing

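Across 19 alternatives, 1160 values of the 6 factors kept their direction and their side of the threshold, 76 lost a call, 5 gained one and 78 changed sign. Of the 730 values called in neither fit 75 changed sign, and the values near 0 are of no fixed direction. Zbtb7b, Runx3 and Runx1 between CD4SP and CD8SP kept their direction in every alternative run. The cause of the changes was not tested, except that leaving out a library or thinning removes data by construction. CD4SP held 60 to 222 cells a library.

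The log2 values that changed sign were, without a filter on low counts, Cbfb -0.057 (CD4SP over DP). With a mitochondrial limit of 5% they were Gata3 0.13 and Runx1 -0.033 (genotype in DPbla), Gata3 -0.16 and Cbfb -0.011 (genotype in DPre), Runx1 -0.15 and Runx3 -0.30 (genotype in CD4SP), Cbfb -0.42 (CD4SP over DP), Zbtb7b 2.95 and Runx3 0.36 (CD8SP against CD4SP interaction), and with a limit of 20% Zbtb7b 0.093 (genotype in all DP), Cbfb -0.0033 (genotype in DPre), Runx1 -0.027 (genotype in DPsel) and Patz1 -0.034 (CD4SP over CD8SP). Without doublet removal Runx1 was -0.0048 (genotype in CD4SP) and Patz1 -0.047 (CD4SP over CD8SP), and with extreme UMI totals kept they were -0.026 and -0.019. Stricter gates gave Gata3 0.097 (genotype in all DP) and 0.017 (genotype in DPsel) and Runx1 -0.16 (genotype in CD4SP). Looser gates gave Cbfb 0.049 (genotype in DPsel), Zbtb7b -0.14, Cbfb -0.075 and Patz1 0.0699 (genotype in CD4SP), Patz1 -0.0198 (CD4SP over CD8SP), Gata3 0.35 (CD8SP over DP) and Cbfb 0.17 (CD8SP against CD4SP interaction). Cells thinned to 1500 UMIs gave Gata3 0.16 (genotype in all DP) and 0.33 (genotype in DPbla), Runx1 -0.33 (genotype in DPsel) and -0.15 (genotype in CD4SP), Cbfb 0.77 and Patz1 -0.20 (CD4SP over CD8SP), Cbfb -0.57 (CD8SP over DP) and -0.65 (CD8SP over DPsel), Runx1 0.36 (CD8SP against CD4SP interaction) and Runx3 0.57 (CD4SP against DP interaction). DP cells set without coreceptor genes gave Zbtb7b 0.51 (genotype in all DP), CD4SP without Foxp3 or Il2ra cells Runx1 -0.015 (genotype in CD4SP), and DP cells without CD8 program UMIs Gata3 0.015 and Runx1 -0.014 (genotype in DPbla), Cbfb 0.013 (genotype in DPsel) and Zbtb7b -0.027 (DPre over DPbla).

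Leaving out 1 library at a time gave a range that crossed 0 for Zbtb7b -0.78 to 0.57 and Gata3 -0.18 to 0.063 (genotype in all DP), Gata3 -0.24 to 0.076, Cbfb -0.11 to 0.038 and Runx1 -0.0399 to 0.17 (DPbla), Gata3 -0.011 to 0.14 and Cbfb -0.079 to 0.12 (DPre), Zbtb7b -1.31 to 0.085 and Cbfb -0.34 to 0.23 (DPsel), Runx3 -0.21 to 0.52, Patz1 -0.55 to 0.21, Zbtb7b -0.026 to 0.34 and Runx1 -0.10 to 0.12 (CD4SP), Runx3 -0.11 to 0.25 (CD8SP), Patz1 -0.22 to 0.26 (CD4SP over CD8SP), Cbfb -0.028 to 0.083 (CD4SP over DP), and Runx3 -0.54 to 0.46, Patz1 -0.79 to 0.095 and Cbfb -0.18 to 0.083 (CD8SP against CD4SP interaction). The lone sample left in a genotype was taken to vary like the others.

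Counts of factors called that moved by over 1.5 times were these. For genotype, all DP fell to 0 with a mitochondrial limit of 5%, DPre to 0 with that limit and with stricter gates, and DPbla rose to 1 without a filter on low counts and without control 2 (Runx3 1.63, adjusted p = 0.00216), with a range of 0 to 1 over libraries left out. The CD8SP against DP interaction fell to 0 with a limit of 5%, without doublet removal, with stricter gates, looser gates and thinned cells, and ranged from 0 to 1 over libraries left out. Thinned cells gave 2 for CD4SP over CD8SP, 2 for CD4SP over DP and 3 for CD8SP over DP, with 4 factors tested since Zbtb7b and Gata3 fell below the filter, and, with 5 tested since Zbtb7b did, 2 for DPre over DPbla, 1 for DPsel over DPre, 2 for CD4SP over DPsel and 3 for CD8SP over DPsel. DPsel over DPre gave 2 with a limit of 5%, 1 with stricter gates, 3 without the library block and 3 without CD8 program UMIs, and CD8SP over DP gave 3 to 4 over libraries left out. Smaller changes took CD8SP over DP to 4 with DESeq2, without a filter, with a limit of 5% and without the library block, CD8SP over DPsel to 4 with a limit of 5%, CD4SP over CD8SP to 3 with looser gates, and CD4SP over DP to 3 with a limit of 5% and with stricter gates.

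Genes called for genotype in all DP numbered 406, and ranged over libraries left out from 72 to 364 and over other settings from 105 to 727. The same counts were 153, 109 to 269 and 36 to 486 in DPre, 51, 40 to 172 and 0 to 141 in DPbla, 14, 16 to 31 and 0 to 49 in DPsel, 4, 8 to 45 and 0 to 49 in CD4SP, and 6, 0 to 78 and 0 to 24 in CD8SP. CD4SP over CD8SP gave 839, 504 to 686 and 111 to 1070. DESeq2 gave no adjusted p for the factors in DPbla and DPsel and in the interactions with DP.

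With the replicate number as a block, the mice being littermates studied as 2 pairs but no source saying that the numbers mark the pairs, genes called for genotype rose from 406 to 1332 in all DP, from 51 to 333 in DPbla, from 153 to 885 in DPre, from 14 to 42 in DPsel, from 4 to 55 in CD4SP and from 6 to 74 in CD8SP. Runx3 in DPbla was then called (0.94, adjusted p = 0.00913), so that 1 factor was called there, and Runx1 -0.0080 and Patz1 0.012 in CD4SP changed sign. Deviations of same-numbered libraries correlated at 0.281 (all DP), 0.203 (DPbla), 0.241 (DPre), 0.0952 (the DPsel portion), 0.0886 (CD4SP cells) and 0.134 (CD8SP cells), over 2 pairs.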
